A study of Mus musculus with 4 samples.

Results

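The keratin-associated proteins, encoded by the Krtap genes, were described by subfamily in mouse back skin. Members were all probe sets of the array that the platform annotation ties to a single gene symbol beginning with Krtap. This gave 38 genes in 22 numbered subfamilies, of 18194 genes with such a probe set. They were measured by 43 of the array's 45101 probe sets. The members were split by number into high glycine-tyrosine proteins (subfamilies 6, 7, 8, 16, 19, 20, 21 and 22), with 17 probe sets of 14 genes, and high or ultrahigh sulphur proteins (the others), with 26 probe sets of 24 genes. No member belonged to subfamily 20. A further 6 probe sets carried a Krtap symbol together with other symbols and were left out.

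Keratin-associated proteins are small proteins that fill the space between the keratin filaments of the hair shaft. The sulphur-rich classes hold many cysteines and are bound to hair keratins and to each other by disulphide bridges, whereas the high glycine-tyrosine class is poor in cysteine and rich in the residues that name it. The genes lie in clusters and are transcribed late in differentiation, in the cortex and cuticle cells above the bulb of a growing hair.

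Affymetrix arrays of 2 groups were compared. K5-IKKbeta mice express IKKbeta, a kinase of the NF-kB pathway with the gene symbol Ikbkb, from regulatory elements of keratin K5, which are active in basal keratinocytes of the epidermis and in the outer root sheath of the follicle (n = 2 arrays). Wild type mice, labelled as controls, carried no other allele that the labels name (n = 2 arrays). All were males of 32 days on a C57BL6 X DBA2 background, and each array held a pool of 3 mice. Errors and p-values therefore rest on the spread between pools. How many transgenic lines were used is not given in the sources used here. Values are RMA expression values on the log2 scale, and each log2 fold change is the K5-IKKbeta mean less the wild type mean. Adjusted p-values come from limma fitted on all probe sets, with Benjamini-Hochberg adjustment over all of them and a threshold of 0.05. The standard errors (SE) from limma combine the spread of each probe set with a common spread estimated over all probe sets.

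Array medians lay between 6.91 and 6.96 and all values between 2.65 and 14.67. Over all probe sets, whose values are not independent of each other, Pearson's correlation was 0.994 between the K5-IKKbeta arrays, 0.996 between the wild type arrays and 0.965 to 0.969 across genotypes. The gene of the transgene differed in the labelled direction on probe set 1454184_a_at for Ikbkb, with 8.77 and 8.74 in K5-IKKbeta skin and 6.50 and 6.54 in wild type skin (log2 fold change 2.24, SE 0.11, adjusted p = 0.0001). Of the 5 probe sets for Ikbkb, 3 were higher and 2 did not pass. Where they lie relative to the transgene was not analysed here.

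Krtap transcripts were nearly all lower in K5-IKKbeta skin. Of the 43 probe sets, 42 fell and 1 did not pass the threshold, against 5.88% of all probe sets called lower. None rose at an adjusted or an unadjusted p under 0.05. Both K5-IKKbeta arrays lay below both wild type arrays for all 43, an order seen in 25.8% of all probe sets. The median log2 fold change was -7.22, beside 0.00 over all probe sets, and 39 members fell at least 16-fold by the fitted values, as did 0.195% of all probe sets. The adjusted p-values of the members that fell ranged from 7.3e-07 to 0.00059.

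**Figure D1:**
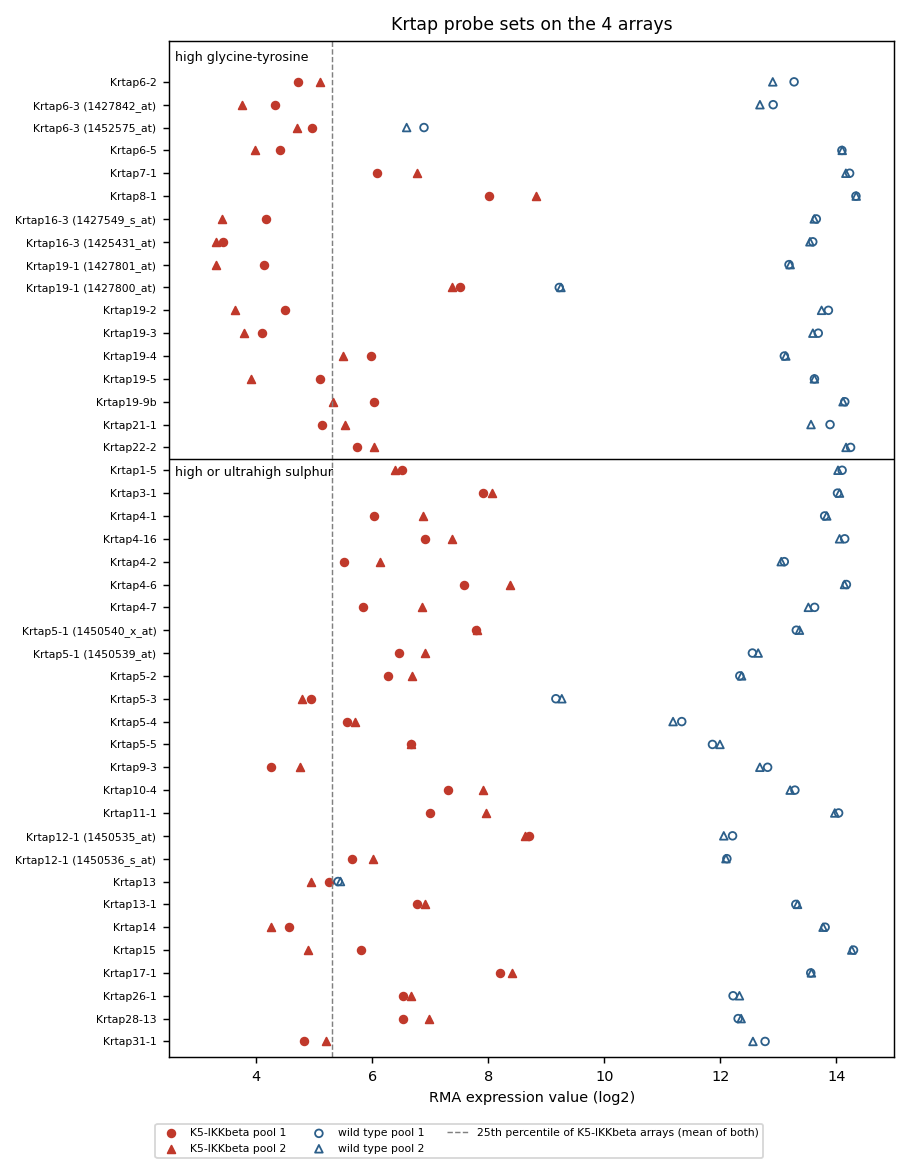
RMA expression value (log2, horizontal axis) of each Krtap probe set (rows) on the 4 arrays, K5-IKKbeta pools as filled red symbols and wild type pools as open blue symbols, with the 25th percentile of the K5-IKKbeta arrays as a dashed line. In all but the Krtap13 row the K5-IKKbeta values sit well to the left of the wild type values.

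In wild type skin these were among the brightest signals on the array. On both wild type arrays 31 of the 43 members lay in the top 1% of all probe sets, and on both K5-IKKbeta arrays 0 of them did. Such bright signals can be held down by saturation. At the other end, 15 members, Krtap13 among them, had both K5-IKKbeta arrays below the 25th percentile of their array (5.35 and 5.27), taken here as a floor because no detection calls were used, and 2 more had 1 array below it. For a member that fell and had both arrays below the floor, the fold is written as a bound, the wild type mean over that floor. Fitted log2 fold changes are printed for such members too, but their true size is unknown and the order of these members is not established.

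Among high glycine-tyrosine members 17 of 17 probe sets fell (median log2 fold change -8.45, range -10.20 to -1.79). Probe set 1425431_at for Krtap16-3 had the most negative fitted value of the family, with 3.42 and 3.31 in K5-IKKbeta skin against 13.59 and 13.54 in wild type skin, a fall of at least 306-fold (log2 fold change -10.20, SE 0.11, adjusted p = 7.3e-07). The other probe set for this gene, 1427549_s_at, had 4.18 and 3.41 in K5-IKKbeta skin and 13.65 and 13.62 in wild type skin, at least 321-fold lower (log2 fold change -9.85, SE 0.24). Neither probe set of Krtap16-3 left a signal above the floor in K5-IKKbeta skin, so the sizes of their falls cannot be compared.

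In subfamily 6, a group long known from hair cortex, 4 probe sets of 3 genes fell. Krtap6-5 had 4.42 and 3.99 in K5-IKKbeta skin against 14.10 and 14.10 in wild type skin, at least 441-fold lower (adjusted p = 1.4e-06), the highest bound of any member. Krtap6-2 was at least 219-fold lower. For Krtap6-3 the 2 probe sets disagreed in size. The brighter, 1427842_at, was at least 179-fold lower, while 1452575_at, at 4.95 and 4.71 in K5-IKKbeta skin and 6.89 and 6.59 in wild type skin, was at least 2.70-fold lower (log2 fold change -1.91, adjusted p = 0.00059).

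Subfamily 19 had the most members, with 7 probe sets of 6 genes, all lower, and a median log2 fold change of -9.12. Krtap19-9b, the brightest of them in wild type skin, measured 6.03 and 5.33 in K5-IKKbeta skin and 14.14 and 14.12 in wild type skin (log2 fold change -8.45, SE 0.22, adjusted p = 8.0e-06). Its K5-IKKbeta values were just above the floor, and those of Krtap19-2, Krtap19-3, Krtap19-5 and 1427801_at for Krtap19-1 were below it, at bounds of at least 236-fold to 360-fold. The second probe set of Krtap19-1, 1427800_at, was the high glycine-tyrosine probe set with the smallest change, at 7.51 and 7.38 in K5-IKKbeta skin and 9.22 and 9.25 in wild type skin (log2 fold change -1.79, SE 0.11, adjusted p = 0.00024). Copies in this subfamily are alike in sequence and a probe set can bind several of them, so values of single genes are uncertain.

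The 4 remaining high glycine-tyrosine genes kept some signal above or at the floor. Krtap21-1 had 5.14 and 5.52 in K5-IKKbeta skin, with 1 array below the floor, and 13.89 and 13.56 in wild type skin (log2 fold change -8.40, SE 0.18). Krtap22-2 had 5.73 and 6.03 in K5-IKKbeta skin and 14.25 and 14.17 in wild type skin (log2 fold change -8.33, SE 0.13). Krtap7-1 had 6.08 and 6.78 in K5-IKKbeta skin and 14.23 and 14.16 in wild type skin (log2 fold change -7.77, SE 0.22). In none of these genes did the arrays of the groups overlap. Krtap8-1, the sole member of its subfamily, had 8.02 and 8.82 in K5-IKKbeta skin and 14.34 and 14.34 in wild type skin, a fall of 60.7-fold (log2 fold change -5.92, SE 0.25, adjusted p = 6.3e-05). When each gene was represented by its brightest probe set, Krtap8-1 had the smallest change of the class.

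Among high or ultrahigh sulphur members 25 of 26 probe sets fell and 1 did not pass (median log2 fold change -6.11, range -9.38 to -0.33). Krtap14 had the most negative fitted value of the class, with 4.57 and 4.25 in K5-IKKbeta skin and 13.81 and 13.77 in wild type skin, at least 356-fold lower (log2 fold change -9.38, adjusted p = 1.4e-06). Its neighbour on the chromosome, Krtap15, had 5.80 and 4.89 in K5-IKKbeta skin and 14.30 and 14.27 in wild type skin (log2 fold change -8.94, SE 0.27), with 1 K5-IKKbeta array below the floor. Krtap13 was the member that did not pass, with 5.26 and 4.94 in K5-IKKbeta skin and 5.41 and 5.45 in wild type skin (log2 fold change -0.33, 95% confidence interval -0.66 to -0.0006, adjusted p = 0.17). Its wild type values were just above the floor of those arrays (5.38 and 5.32). The related gene Krtap13-1 had 6.78 and 6.91 in K5-IKKbeta skin and 13.30 and 13.33 in wild type skin (log2 fold change -6.47, SE 0.11).

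Subfamilies 1, 3, 4 and 9 lie in a common gene cluster with subfamilies 17 and 31. In human hair, subfamilies 1 and 3 are cortex proteins of the high sulphur type, and subfamilies 4 and 9 are of the ultrahigh sulphur type. Krtap1-5 had 6.52 and 6.40 in K5-IKKbeta skin and 14.10 and 14.03 in wild type skin (log2 fold change -7.61, SE 0.11, adjusted p = 1.4e-06). Krtap3-1 had 7.91 and 8.07 in K5-IKKbeta skin and 14.02 and 14.05 in wild type skin (log2 fold change -6.05, SE 0.11). In both genes the K5-IKKbeta pools lay close together and far from wild type. The 5 probe sets of subfamily 4 all fell, with log2 fold changes from -7.36 to -6.18 and a median of -7.22. Krtap4-6, the brightest, had 7.58 and 8.38 in K5-IKKbeta skin and 14.17 and 14.14 in wild type skin. Krtap9-3 had 4.25 and 4.76 in K5-IKKbeta skin and 12.81 and 12.68 in wild type skin, at least 173-fold lower. Krtap31-1 had 4.82 and 5.20 in K5-IKKbeta skin and 12.77 and 12.56 in wild type skin, at least 164-fold lower. Among genes of this cluster with a probe set of their own, only these last 2 were below the floor on both K5-IKKbeta arrays.

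Subfamilies 5, 10, 12 and 17 are found in the hair cuticle in human hair. Their 10 probe sets all fell (median log2 fold change -5.58, range -6.27 to -3.46), while the other 16 sulphur probe sets had a median of -7.09. These subfamilies were put together after their values were seen, and the difference was not tested. Probe set 1450540_x_at for Krtap5-1 had 7.80 and 7.80 in K5-IKKbeta skin and 13.31 and 13.36 in wild type skin (log2 fold change -5.54, SE 0.11), and the 6 probe sets of subfamily 5 ranged from -5.91 to -4.35. Krtap10-4 had 7.31 and 7.91 in K5-IKKbeta skin and 13.29 and 13.20 in wild type skin (log2 fold change -5.63, SE 0.20). Krtap17-1 had 8.20 and 8.40 in K5-IKKbeta skin and 13.56 and 13.57 in wild type skin, a fall of 38.4-fold (log2 fold change -5.26, SE 0.12). For Krtap12-1, 1450535_at, at 8.71 and 8.64 in K5-IKKbeta skin and 12.21 and 12.06 in wild type skin, fell by 3.46 on the log2 scale, while 1450536_s_at fell by 6.27. The 2 probe sets of Krtap12-1 thus disagreed in the size of the fall, and which is closer to the transcript was not tested.

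The other sulphur subfamilies had 1 probe set each and fell as well. Krtap11-1 had 6.99 and 7.96 in K5-IKKbeta skin and 14.04 and 13.97 in wild type skin (log2 fold change -6.53, SE 0.29), with the pools of K5-IKKbeta skin almost 1 unit apart. Krtap26-1 had 6.52 and 6.66 in K5-IKKbeta skin and 12.22 and 12.33 in wild type skin (log2 fold change -5.68, SE 0.11). Krtap28-13, which lies outside the clusters of the other members, had 6.52 and 6.97 in K5-IKKbeta skin and 12.31 and 12.36 in wild type skin (log2 fold change -5.58, SE 0.16). In all 3 genes both wild type arrays lay far above both K5-IKKbeta arrays.

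**Figure D2:**
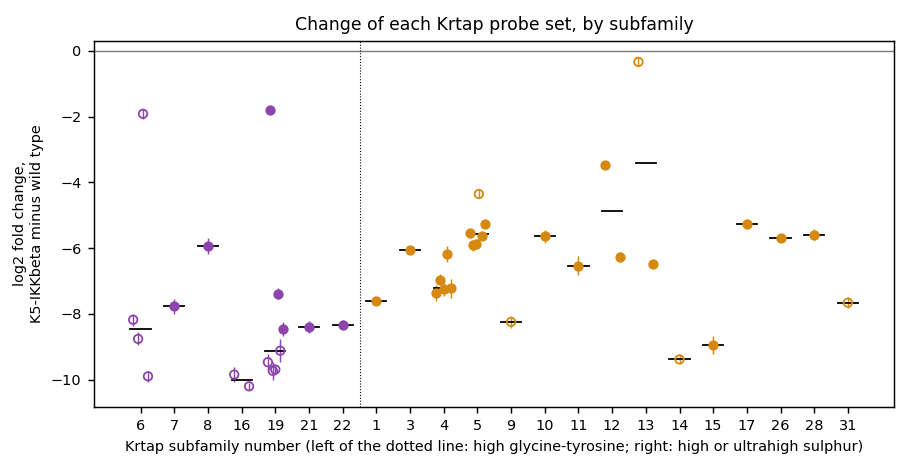
Log2 fold change of each Krtap probe set (vertical axis, K5-IKKbeta minus wild type, bars showing the limma standard error) by subfamily number (horizontal axis), with open circles where both K5-IKKbeta arrays lay below the 25th percentile and a black line at the subfamily median. High glycine-tyrosine medians run from -10.02 in subfamily 16 to -5.92 in subfamily 8, and sulphur medians from -9.38 in subfamily 14 to -3.40 in subfamily 13.

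Set side by side, the high glycine-tyrosine class had the more negative median log2 fold change (-8.45, against -6.11 in the sulphur class, a difference of -2.34). A fitted log2 fold change of -8 or less was found in 12 of 17 high glycine-tyrosine and 3 of 26 sulphur probe sets. These counts include members below the floor, whose true size is unknown. By their bounds, some of them did not reach -8, and the share of all probe sets at this size was not counted. With bounds in place of fitted values for members below the floor, the medians were -8.26 for high glycine-tyrosine and -6.11 for sulphur members. Leaving out K5-IKKbeta pool 1 gave -8.80 and -5.88 for the classes in the same order, and leaving out pool 2 gave -8.47 and -6.29. These are descriptions without a test. Signals of different probe sets differ in how well they bind, and most members started near the top of the range, so the size of a fall depends in part on what signal a probe set shows once its transcript is scarce.

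Promoters of the members with the most and the least negative fitted log2 fold change in each class, taking the brightest probe set of each gene, are shown because the class members moved together. The sequences are from RefSeq (mouse build GRCm38.p6) and run from 250 bases before to 50 bases after the gene start. Capitals mark TATAAA or TATATAA on the gene's strand between 50 and 11 bases before the start, the place of a TATA box.
Krtap6-5, chr16:89047850-89048149, strand -: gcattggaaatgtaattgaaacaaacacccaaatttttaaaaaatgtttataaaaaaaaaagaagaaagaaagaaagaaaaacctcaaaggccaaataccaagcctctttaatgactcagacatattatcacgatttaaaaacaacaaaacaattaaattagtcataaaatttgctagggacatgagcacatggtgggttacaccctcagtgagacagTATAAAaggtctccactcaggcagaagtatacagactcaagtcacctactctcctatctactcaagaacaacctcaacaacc
Krtap8-1, chr16:89487903-89488202, strand -: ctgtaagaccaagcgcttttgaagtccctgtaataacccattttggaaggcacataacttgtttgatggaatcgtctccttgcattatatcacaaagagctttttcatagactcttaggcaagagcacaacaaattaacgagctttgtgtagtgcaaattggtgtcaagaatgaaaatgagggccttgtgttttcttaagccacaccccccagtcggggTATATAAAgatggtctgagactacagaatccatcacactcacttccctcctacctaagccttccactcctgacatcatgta
Krtap14, chr16:88826096-88826395, strand -: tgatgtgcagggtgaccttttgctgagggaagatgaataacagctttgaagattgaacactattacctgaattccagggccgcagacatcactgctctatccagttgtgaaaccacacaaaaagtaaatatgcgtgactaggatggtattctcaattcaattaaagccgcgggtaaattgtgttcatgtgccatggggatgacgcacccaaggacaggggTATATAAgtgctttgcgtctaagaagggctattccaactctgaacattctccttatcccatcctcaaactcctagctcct
Krtap13, chr16:88751579-88751878, strand -: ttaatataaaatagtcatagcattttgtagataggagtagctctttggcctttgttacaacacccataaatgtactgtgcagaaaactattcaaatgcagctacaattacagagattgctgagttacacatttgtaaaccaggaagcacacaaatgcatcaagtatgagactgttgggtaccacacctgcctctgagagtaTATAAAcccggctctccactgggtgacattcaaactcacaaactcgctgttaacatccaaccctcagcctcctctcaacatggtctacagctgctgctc

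These 4 promoters each held the word, starting 32 bases before the start in Krtap6-5, 31 in Krtap8-1, 30 in Krtap14 and 49 in Krtap13, and the gene that did not pass was among them. A promoter was found for 36 of the 38 genes, the exceptions being Krtap7-1 and Krtap12-1. In that window TATAAA or TATATAA was found in 26 of the 36 (72.2%), in 8 of 13 high glycine-tyrosine genes and in 18 of 23 sulphur genes, against 2.87% of all 32851 promoters. All these promoters belong to 27025 genes, so some genes count more than once, whereas each member counts once. Copies within a subfamily can be alike in sequence, so member promoters may not be independent of each other. The start of TATAAA lay 27 to 49 bases before the gene start, with a median of 31.

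Words bound by regulators of hair genes were also counted, on both strands of the 300 bases. The word of Hoxc13, a homeobox factor of the hair shaft, was taken as TTTATN or TTAATN followed by AA, AG, GA or GG. Leaving aside matches that overlap TATAAA, it was found in 15 of 36 member promoters (41.7%) and 16.03% of all promoters. CTTTGA and CTTTGT, cores of Lef1 and related factors, were found in 10 (27.8%, against 5257 of all 32851) and 14 (38.9%, against 18.7% of all). The kB consensus of NF-kB was found in 2 member promoters (5.56%) and 8.46% of all, and a stricter form of it, with fixed bases at all but 1 position, in 1 member promoter (2.78%) and 0.41% of all. The broader form was added after the counts of the stricter form were seen. Member promoters were richer in A and T (57.7%, against 46.2% over all promoters), which raises the share of A- and T-rich words, and a match is not evidence of binding.

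The members were then placed in the order of their genes on the chromosome, taken from the RefSeq gene table. The longest run, from Krtap26-1 to Krtap11-1, held 23 probe sets of 20 genes, including all high glycine-tyrosine members. Along it, the first 3 genes (Krtap26-1, Krtap13-1 and Krtap13) had log2 fold changes of -6.47 to -0.33. The next 12 genes, from Krtap14 to Krtap6-3, had a median of -9.25 and a range of -9.90 to -7.38 by their brightest probe sets. The last 5, from Krtap21-1 to Krtap11-1, had a median of -7.77 and a range of -8.40 to -5.92. With bounds in place of fitted values below the floor, the 12 genes had a median of -8.33 and the last 5 again -7.77, so the stretches then stood closer. The middle stretch held both classes: its sulphur genes Krtap14 and Krtap15 had a median of -9.16, and its 10 high glycine-tyrosine genes a median of -9.29. The 4 high glycine-tyrosine genes of the last stretch had a median of -7.97. Stretches were drawn after the values were seen, and class and position cannot be told apart for most genes. The other runs had medians of -7.24 (10 probe sets, the cluster of subfamilies 1, 3, 4, 9, 17 and 31), -5.63 (3 probe sets, subfamilies 10 and 12) and -5.58 (6 probe sets, subfamily 5).

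The median SD over members was 0.29 between K5-IKKbeta pools and 0.04 between wild type pools, where most members were so bright that saturation may narrow the spread. Pool 1 lay above pool 2 on 14 of 15 probe sets from Krtap14 to Krtap6-3, by a median of 0.49, the exception being Krtap22-2 (-0.30). Pool 2 lay above pool 1 on 5 of 5 probe sets from Krtap21-1 to Krtap11-1, with a median difference of -0.70, and on 9 of 10 in the cluster of subfamilies 1, 3, 4, 9, 17 and 31 (median -0.48). Most of the middle stretch was near or below the floor, and among the 10597 other probe sets below the floor on both K5-IKKbeta arrays pool 1 was above pool 2 in 65.8%, by a median of 0.08. With 2 pools no test of this pattern was made.

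**Figure D3:**
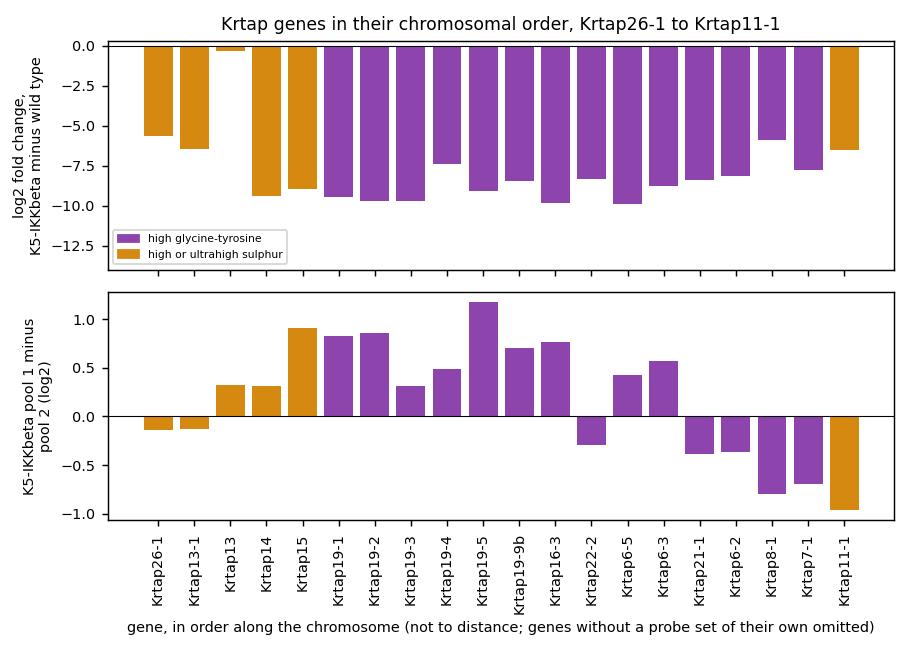
Log2 fold change (upper panel, K5-IKKbeta minus wild type) and difference between the K5-IKKbeta pools (lower panel, pool 1 minus pool 2 on the log2 scale) for the brightest probe set of each of 20 Krtap genes in chromosomal order, coloured by class. The 12 genes from Krtap14 to Krtap6-3 have log2 fold changes of -9.90 to -7.38, and the pool difference is negative in all 5 genes at the right end.

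Other genes of the hair were compared by lists, with 1 probe set for each gene. Over all probe sets 5.88% were called lower and 10.4% higher, the shares to set beside the counts of the lists. All 12 measured hair shaft keratins, the filament proteins with which keratin-associated proteins pair, fell (median log2 fold change -5.82). Krt86, a keratin of the cortex, had 6.70 and 7.05 in K5-IKKbeta skin and 13.91 and 13.89 in wild type skin (log2 fold change -7.03), Krt34 had a log2 fold change of -6.83, Krt33a of -6.48 and Krt31 of -6.16. Krt35, among the earliest hair keratins to be made in the matrix, had the smallest change (-2.60), and was picked after its value was seen. Its values were 10.30 and 11.12 in K5-IKKbeta skin and 13.24 and 13.39 in wild type skin.

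Proteins that process or join the hair shaft changed less uniformly. Of 16 measured genes 14 fell, 1 rose and 1 did not pass, with a median of -2.50. The call of Crct1 (-0.65) was lost without wild type 1, wild type 2 or K5-IKKbeta 2. Gprc5d, an orphan receptor of hair cortex, had a log2 fold change of -5.93, Vsig8, a membrane protein of the shaft and inner root sheath, of -5.20, Padi1, which turns arginine into citrulline, of -4.77, and Crym, a thyroid hormone binding protein, of -4.55. Tgm5, an epidermal transglutaminase, was the gene that rose (0.95, adjusted p = 0.0043, and 0.055 without wild type 1). All 8 measured inner root sheath genes fell, with a median of -2.54. They were led by the keratins Krt26 (-5.35), Krt72 (-4.23) and Krt27 (-2.84) and by Tchh, or trichohyalin (-2.70). The call of Krt73 (-1.59) was lost without wild type 2.

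Of 18 measured regulators of hair differentiation 11 fell and 7 did not pass, with a median log2 fold change of -0.78, and none rose (0 also at an unadjusted p under 0.05). Foxn1, the factor whose loss gives nude mice, had 6.83 and 7.22 in K5-IKKbeta skin and 9.91 and 9.84 in wild type skin (log2 fold change -2.85, adjusted p = 0.00014). Msx2, a homeobox factor of the hair matrix, had a log2 fold change of -2.32, and Dlx3, a homeobox factor of matrix and shaft, of -1.70. Hoxc13 had 8.22 and 8.31 in K5-IKKbeta skin and 10.18 and 10.26 in wild type skin (log2 fold change -1.96, adjusted p = 0.00016). In each of these 4, named for their large change, both K5-IKKbeta arrays lay below both wild type arrays, an order seen in 25.8% of all probe sets. Without wild type 1, and likewise without wild type 2, 7 of the 18 passed.

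**Figure D4:**
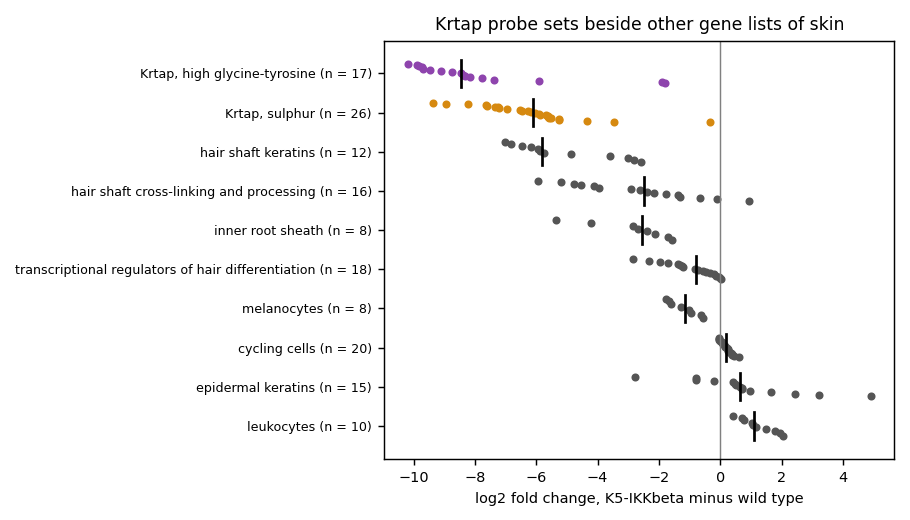
Log2 fold change (horizontal axis, K5-IKKbeta minus wild type) of each member of the Krtap classes (probe sets) and of 8 gene lists (1 probe set for each gene), with a black line at each median. The Krtap classes have medians of -8.45 and -6.11, hair shaft keratins -5.82, regulators -0.78, cycling cells 0.19 and leukocytes 1.11.

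Melanocyte markers also fell (median -1.15, against -7.22 over the Krtap probe sets), beside 5.88% of all probe sets called lower. Leukocyte markers mostly rose, and nearly all markers of cycling cells did not pass. In bulk skin, fewer cells of a type and less RNA in each cell cannot be told apart. All 8 melanocyte markers fell (median -1.15), 5 of them also without wild type 1 or without wild type 2, and their summed linear signal was 10190 and 10645 in K5-IKKbeta skin and 20456 and 21029 in wild type skin. Oca2 (-1.78), Mlana (-1.68), Tyr (-1.61) and Pmel (-1.27) changed most. Of 10 leukocyte markers 9 rose, against 10.4% of all probe sets called higher, though some calls were lost without a wild type array. Their summed signals were 20211 and 19954 in K5-IKKbeta skin and 6913 and 6540 in wild type skin. Cd74 (2.05), Ptprc (1.96), Cd207 (1.79) and Lyz2 (1.48) led them. Of 20 markers of cycling cells none fell (0 also at an unadjusted p under 0.05 in limma) and 1, Mcm6, passed as higher (0.62, adjusted p = 0.022), a share below the 10.4% of all probe sets. That call was lost without wild type 1 (0.17), wild type 2 (0.071) or K5-IKKbeta 2 (0.058). Their summed signals were 22438 and 27184 in K5-IKKbeta skin and 19669 and 22858 in wild type skin. The part of any of these in the Krtap result was not tested.

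The labelled tissue was checked against defining keratins of the epidermis. The shares of all probe sets were 10.4% called higher and 5.88% called lower. Krt14, a keratin of basal cells, was bright in both groups and had 13.81 and 13.50 in K5-IKKbeta skin and 13.19 and 13.07 in wild type skin. Of 15 epidermal and companion layer keratins 10 rose and 3 fell, while without wild type 1, and likewise without wild type 2, 5 rose and 1 fell. The call of Krt14 itself (0.53, adjusted p = 0.0497) was lost without either of these arrays and without K5-IKKbeta 1 (0.13). Krt2 (4.93), Krt16 (3.22) and Krt6b (2.45) rose. Krt75, a companion layer keratin, fell (-2.77), as did Krt80 (-0.81) and Krt6a (-0.78), and Krt17 did not pass (-0.20). Both wild type arrays were below the floor for Krt2 (4.35 and 5.26), so its size is rough. No Krtap gene shared the rise of the 10 keratins called higher.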

How the data were processed

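Skin RNA, 5 micrograms for an array, was labelled and hybridised on Affymetrix arrays, per the labels' protocols. The authors deposited RMA values, a method the submitters' processing notes name without a version. No source used here gives the log base; the deposited values, 2.65 to 14.67, were taken as log2. Neither scanner files nor detection calls were used. The small number of arrays limits the precision.

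Symbols came from the platform annotation, in which 34958 probe sets had 1 symbol, 932 several and 9211 none. Identifiers of 34754 matched the RefSeq gene table (GRCm38.p6), and 0 symbols changed. All 45101 probe sets were fitted together with limma 3.58.1 under R 4.3.3, by lmFit and eBayes with genotype alone in the model; tests were two-sided, the prior had 4.46 and the residual 2 degrees of freedom, and 7350 probe sets passed. The fit was tested on simulated data. Each of 11 gene lists used the probe set with the highest mean of each gene. Members, lists and the floor were chosen with earlier results of these data known.

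Values on 4 arrays are given for the probe set of each subfamily with the highest wild type mean, for the extremes of each class and for members that did not pass. In other lists up to 4 genes with the largest change past the threshold are named; any others were singled out with their values in view. Markers of dermal fibroblasts, skeletal muscle and adipocytes were counted too, and none fell (0 also at an unadjusted p under 0.05 in limma). In the same order 3 of 6, 5 of 6 and 2 of 5 rose, against 10.4% of all probe sets called higher. Without wild type 1 these counts were 0, 2 and 1, without wild type 2 they were 0, 2 and 0, and adipocyte markers numbered 1 without either K5-IKKbeta array. Alternatives were filters on dim probe sets, 1 probe set for each gene, probe sets of shared sequence left out, 3 other scalings, 3 other variance models or thresholds, other floors, the replicate number as a block, and each array left out.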

Additional observations from a re-analysis of the deposited data

How the results depend on the processing

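The 42 falls among Krtap probe sets, 17 of them high glycine-tyrosine and 25 sulphur, were also called under 3 other scalings, trend and robust eBayes, a test against a 1.2-fold change and without each array in turn (42 to 42, 17 to 17 and 25 to 25). Filters at the 40th and 60th percentile kept 41 and 40 of the 43 members, and all of those fell, as did 38 of 39 without probe sets of shared sequence. The filters used the mean over all 4 arrays, which bright wild type values raise, and they removed Krtap13. That all kept members fell is therefore no independent check. Without moderation across probe sets, limma's fit on 2 residual degrees of freedom called 0 of 43 Krtap probe sets, 0 of 17 high glycine-tyrosine, 0 of 26 sulphur, 0 of 12 hair shaft keratins and 0 of 18 regulators. At an unadjusted p under 0.05 it called 42 of the Krtap probe sets, 12 hair shaft keratins and 10 regulators. Adjusted p-values of the 42 then lay between 0.051 and 0.15, and over all probe sets 19 passed in place of 7350. Over all probe sets 3612 passed the test against a 1.2-fold change, 2664 passed without wild type 1 and 2530 without wild type 2. Regulators that passed numbered 7 to 12 when single arrays were left out, 7 without either wild type array. The high glycine-tyrosine median, -8.45, was -8.61 with either filter, which dropped the dim probe set of Krtap6-3. It was also -8.61 with 1 probe set for each gene and with the brightest probe set of each gene (chosen after seeing the data). Those 2 settings left out the less bright probe sets of Krtap6-3, Krtap16-3 and Krtap19-1. Without single arrays the high glycine-tyrosine median ran from -8.80 to -8.44. The sulphur median, -6.11, ran from -6.29 to -5.88. The median of folds given as at least was 271 over 14 probe sets, 734 over 2 with the floor at the 10th percentile and 135 over 22 at the 40th. Counting the 6 probe sets with several symbols, also chosen after seeing the data, gave 48 falls of 49. The replicate number as a block gave 42 Krtap calls and changed none of them; same-numbered arrays of the groups had correlated deviations (0.25), but the labels do not say that a number pairs pools, and with 2 pairs this was not used.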

Other observations

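The 6 probe sets that carry a Krtap symbol beside other symbols all fell, with log2 fold changes of -9.16 to -4.96. They are not named, since each may report several genes.

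Pool 2 of K5-IKKbeta skin lay above pool 1 for 10 of 12 hair shaft keratins, 7 of 8 inner root sheath genes, 14 of 18 regulators of hair differentiation and 20 of 20 markers of cycling cells. For epidermal keratins pool 1 lay above pool 2 in 13 of 15. Pool 1 also lay above pool 2 in 57.5% of 32583 other probe sets in the range of the members' K5-IKKbeta means. Mean values on wild type 1 and 2 were 9.48 and 9.70 for cycling cells and 10.09 and 10.16 for regulators. They were 12.62 and 12.66 for hair shaft keratins, 13.68 and 13.68 for inner root sheath genes and 11.24 and 11.24 for epidermal keratins. Wild type 2 had the higher mean for cycling cells, regulators and hair shaft keratins, but the labels do not pair array numbers across groups. Between the K5-IKKbeta pools, keratins of the shaft and sheath mostly had the direction of the Krtap cluster of subfamilies 1, 3, 4, 9, 17 and 31. That direction was opposite to that of the Krtap14 to Krtap6-3 stretch. With 2 pools these are values with no test.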
